A study of Mus musculus with 24 samples.

Results

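The genes described here are the nuclear genes of oxidative phosphorylation in the supporting cells of the mouse fetal gonad. They are the symbols in the deposited count table that begin with Nduf, Uqcr, Atp5, Cox4, Cox5, Cox6, Cox7 or Cox8, or that equal Sdha, Sdhb, Sdhc or Sdhd, leaving out symbols that contain -ps. The rule found 97 of 32040 symbols. They were sorted by name into complex I (37 genes), Ndufaf factors for the assembly of complex I (8), complex II (4), complex III (8), complex IV (20) and ATP synthase (17). Another 3 were set apart by annotation as likely copies of complex I genes. These are pseudogenes in GENCODE or are in neither GENCODE nor RefSeq. Of the 97, 92 passed the filter on low counts and were tested, among 16190 genes in all.

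RNA was measured in 24 libraries of cells sorted from fetal gonads, with 3 libraries for each of 8 groups. The XX groups hold pre-granulosa cells of female embryos from the Tg(Enh8-mCherry) line. The XY groups hold Sertoli cells of male embryos from the SOX9-IRES-GFP line. Each was collected at 4 stages, which were embryonic days E11.5 to E13.5 in steps of 1 day, and E15.5. Sex, mouse line and fluorophore change together, so their parts in any XX and XY difference cannot be told apart. Cells were sorted by flow cytometry on the reporter, per the labels' protocols, and polyadenylated RNA was amplified as cDNA. The labels do not say whether the 3 libraries of a group came from separate litters, so the spread between them may be technical. P-values use a spread within groups that was estimated over all 24 libraries, and not from the compared groups alone. XX E13.5 replicate 1 carries E13.5 in its title and description but E12.5 in its stage label, and was kept at E13.5.

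Oxidative phosphorylation is carried out in the inner mitochondrial membrane. Complexes I, III and IV pass electrons from NADH to oxygen and pump protons, complex II feeds in electrons from succinate, and ATP synthase uses the proton gradient to make ATP. Most subunits are encoded in the nucleus and imported, and the rest, encoded by mitochondrial DNA, were not analysed here. Some complex IV subunits exist as tissue isoforms, of which heart, muscle, testis and hypoxia forms are the best known.

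Libraries held between 11275251 and 37256881 counts. Of the 13 pre-granulosa markers tested, 12, 12, 13 and 13 were higher in XX cells at the 4 stages. Of the 13 Sertoli markers, 11, 12, 12 and 11 were higher in XY cells. All 12 immune cell markers were higher in XX cells at each stage, with summed levels of 59.2 to 673 TPM, a level scaled by transcript length and library size, in XX libraries and 0.4 to 4.01 TPM in XY libraries. At E11.5, XX libraries held 11030, 36411 and 88126 summed TPM of 11 erythroid markers, against 45.7 to 108.5 TPM in XY libraries. In the 3 later stages their sums were 2432 to 5539, 1958 to 2258 and 777 to 1037 TPM in XX libraries. In XY libraries they were 50.5 to 87.3, 58.9 to 108.8 and 395 to 633 TPM. Of the 11, 6, 6 and 4 were higher and 2, 1 and 1 lower in XX cells at those stages. Of 11 interstitial cell markers, 9, 8 and 7 were higher in XX cells in the 3 later stages, with 158 to 339 summed TPM in XX and 37.7 to 101 TPM in XY libraries. At E11.5, 1 of the 11 was higher and 3 lower, with 210 to 1211 TPM in XX and 516 to 898 TPM in XY libraries. In XY cells 9 of the 11 fell from E11.5 to E12.5, to 41.9 to 50 TPM, and none rose. At E13.5, 6 of 7 steroidogenic cell markers were higher in XX cells. Between E11.5 and E12.5, 5 of the 7 fell and 1 rose in XY cells, from 263 to 328 summed TPM to 45.7 to 66.8. In XX cells 4 interstitial and 4 steroidogenic markers fell in that step and none rose. Germ cell markers rose between E13.5 and E15.5 in XY cells (9 of 10, to 70.5 to 124 summed TPM), and 5 of 10 rose in XX cells between E12.5 and E13.5 (to 28.9 to 49.1 TPM). Between E13.5 and E15.5, 5 of 10 rose and 2 fell in XX cells, to 131 to 202 TPM. At E15.5, 3 were higher and 4 lower in XX than in XY cells. These other cell types were not tested for a part in the results below, and in sorted pools a change in cell makeup cannot be told from a change in RNA per cell. XX E11.5 replicate 2, which had the 11030 TPM, stood apart from its group in the genes described here. Counts of called genes over all complexes at E11.5 and in the XX step to E12.5 are given with and without it. Values by complex and of single genes at E11.5 include it, and calls toward XX cells there may rest on it.

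Promoters of 77 of the 97 genes were found in a RefSeq table for GRCm38.p6, which gives 250 bases before and 50 bases after each gene's start. They were searched on both strands for short words that resemble the sites of factors known to drive respiratory genes. The NRF1 word, GCGC then any base then TGCGC, was in 18 of 77 promoters (23.4%), against 4.78% of the 27025 promoters in the table and 9.26% of the 12425 promoters of genes tested. The ETS word CCGGAAG, which resembles a GABP site, was in 18 (23.4%), against 9.12% of all promoters and 16.3% of those of genes tested. The YY1 word ATGGCGG was in 11 (14.3%), against 4.19% and 7.26%. At least 1 of the 3 words was in 40 promoters (51.9%), against 28.6% of those of genes tested. The 150 bases before the start of 3 genes are shown, 5′ to 3′, because each holds both an NRF1 and an ETS word while the genes differ in how they behaved. Capitals mark the words on either strand, and a match is a description of letters, not a bound site.
Cox6a1, chr5:115348959-115349108, minus strand: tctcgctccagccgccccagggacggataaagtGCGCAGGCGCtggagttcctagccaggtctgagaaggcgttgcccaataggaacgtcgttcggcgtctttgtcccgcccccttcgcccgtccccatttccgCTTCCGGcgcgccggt
Atp5h, chr11:115419920-115420069, minus strand: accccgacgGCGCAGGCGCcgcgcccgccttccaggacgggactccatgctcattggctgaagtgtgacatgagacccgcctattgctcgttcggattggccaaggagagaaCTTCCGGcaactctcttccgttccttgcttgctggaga
Sdhd, chr9:50603850-50603999, minus strand: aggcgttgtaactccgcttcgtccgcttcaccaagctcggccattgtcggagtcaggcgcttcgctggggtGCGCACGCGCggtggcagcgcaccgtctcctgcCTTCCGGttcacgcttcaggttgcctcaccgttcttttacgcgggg
At E15.5 Cox6a1, a complex IV subunit gene, was lower in XX cells, Atp5h, for the d subunit of ATP synthase, was higher, and Sdhd, for a membrane anchor of complex II, was not called in either direction. Of the 40 tested genes with a word, 28 were higher and 3 lower in XX cells at E15.5, with a median log2 difference of 0.46. Of the 35 tested genes with no word in this window, 23 were higher and 5 lower, with a median of 0.53.

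Levels are compared between genes in TPM. The summed level of the 97 genes took between 3.2% and 4.67% of the TPM in a library. By mean TPM over the 24 libraries the most abundant gene of each group was Ndufc1 (1309), a small accessory subunit gene of complex I, Ndufa4 (1056) in complex IV, Atp5o (1028), for the stalk subunit OSCP of ATP synthase, Uqcr10 (884.6) in complex III, Ndufb4c (624.9) among the copies, Sdhb (442.7), for the iron-sulfur subunit of complex II, and Ndufaf8 (109.6) among the assembly factors. The summed level of complex I in XX cells was 13307 ± 2725, 13027 ± 353, 15942 ± 242 and 17340 ± 1225 TPM in order of stage (SD, n = 3). In XY cells it was 11398 ± 402, 12692 ± 689, 12185 ± 566 and 11456 ± 277 TPM. From E13.5 on, each XX library lay above each XY library, while at E12.5 the groups overlapped. Complexes II, III and IV and the assembly factors also lay apart at E13.5 and E15.5, with XX higher. At E12.5 complex III (4351 ± 67.3 against 3939 ± 104 TPM) and the assembly factors (485.5 ± 11.1 against 393.8 ± 11.7 TPM) already lay apart, with XX higher. Complexes II and IV overlapped there. The order at E12.5 depended on the unit. In summed CPM, which is not scaled by length, complexes I to IV lay apart at E12.5 with XY higher, and the assembly factors overlapped. Complex III then had 1730 ± 47.5 CPM in XX and 1844 ± 51 CPM in XY cells. Summed ATP synthase differed in its course: XX cells held 8662 ± 243 TPM and XY cells 9952 ± 210 at E12.5, with no overlap, and the groups overlapped later, with 8964 ± 117 and 9075 ± 146 TPM at E13.5 and 8778 ± 404 and 8416 ± 96.3 TPM at E15.5.

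**Figure D1:**
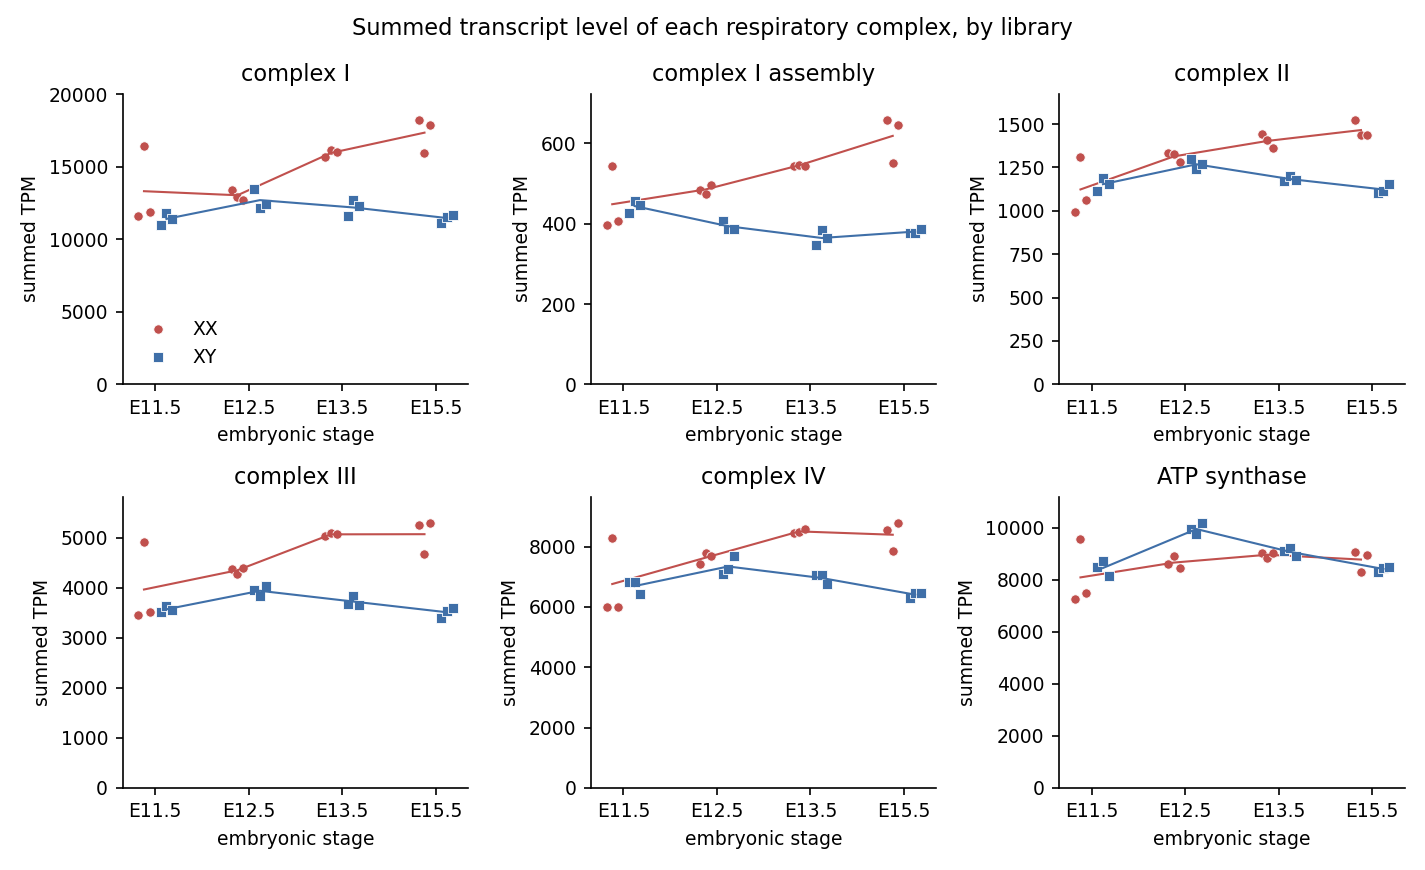
Summed TPM of the genes of each complex (vertical axis, from 0) at each embryonic stage, with 1 point per library, XX as circles and XY as squares, and lines through the group means. Complexes I to IV lie higher in XX cells at E13.5 and E15.5, ATP synthase does not, and 1 of the XX libraries at E11.5 lies above the other two in each panel.

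Differences between XX and XY cells were tested at each stage on the counts, with edgeR's quasi-likelihood test and Benjamini-Hochberg adjustment over all 16190 genes, with calls made below an adjusted value of 0.05. At E15.5, 59 of the 92 tested genes were higher in XX cells and 10 in XY cells, when 34.9% and 34.4% of all genes were called in those directions (69.4% in either). The median log2 difference was 0.45, against 0.05 over all genes. At E13.5, 49 were higher in XX cells and 9 in XY cells, against 32.8% and 33.3% of all genes (66.1% in either), with a median of 0.31 against 0.01. At E12.5 the balance was opposite on the count scale, with 8 higher in XX cells and 35 in XY cells, against 30.5% and 31.5% of all genes (62.1% in either), and a median of -0.19 against -0.01. On the log2(TPM + 1) scale, tested with limma, 21 were higher and 18 lower there. At E11.5, 27 were higher in XX cells and 15 in XY cells, against 21.4% and 20.6% of all genes (42% in either), with a median of 0.12 against 0.02. Without XX E11.5 replicate 2 the E11.5 counts became 8 higher in XX cells and 33 in XY cells, with a median of -0.12. The direction at E11.5 thus rests on that library. Fitted on only the 6 libraries of E11.5, 3 genes were called, 1 higher and 2 lower in XX cells. The E11.5 p-values and SEs given below come from the fit over all 24 libraries and do not measure the spread at E11.5 alone.

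**Figure D2:**
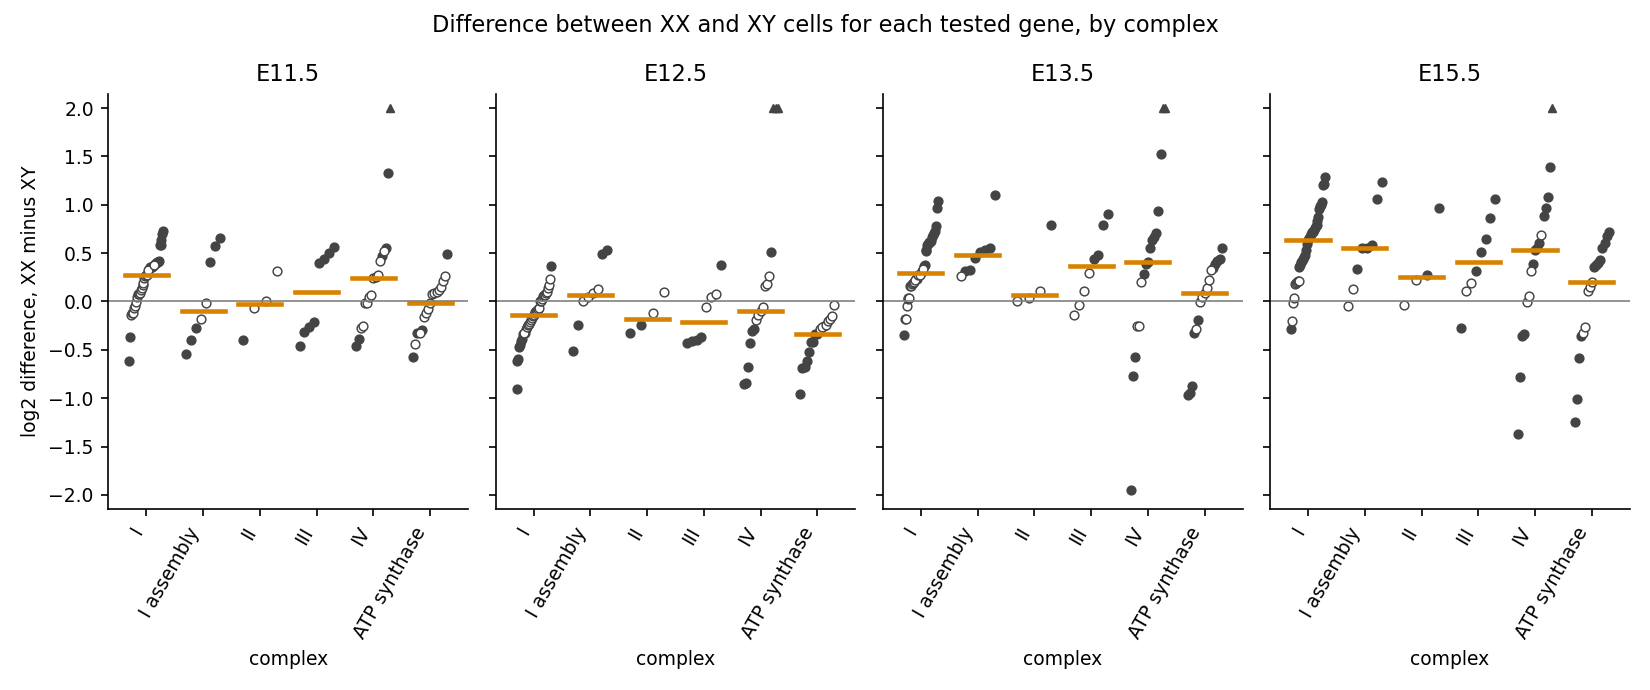
Log2 difference between XX and XY cells (vertical axis) for each tested gene, by complex and stage, with filled points for genes called by edgeR, open points for the rest, and bars at the medians. Triangles at the edge stand for values beyond 2. Medians of complexes I, III and IV lie below 0 at E12.5 and above 0 at E13.5 and E15.5.

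The counted size of a difference in these genes depended on how transcript length was handled. Most of the genes have short transcripts: on a scale where the median over the genes tested was 0.993, their median length was 0.263, and 80 of the 92 were in the shortest 20% of all genes. Over all genes tested, the shortest 20% had a median log2 difference between XX and XY cells of 0.12, 0.09, 0.36 and 0.36 at the 4 stages, and the longest 20% had -0.06, -0.17, -0.27 and -0.12. After a trend on length was removed from the counts of each library, the counts were 31 higher and 24 lower in XX cells at E11.5 (median -0.00). In the later stages they were 8 and 61 (median -0.33), 21 and 37 (median -0.09), and 42 and 23 (median 0.12). Of the genes called by edgeR at each stage, 41 of 42, 43 of 43, 29 of 58 and 51 of 69 kept their call and direction. The lean toward XX cells at E13.5 was thus not found once the length trend was removed, while the lean toward XY cells at E12.5 was larger and that toward XX cells at E15.5 was smaller. The lean toward XY cells at E12.5 was not found on the TPM scale, where the median was 0.03. That of all genes was 0.14 with the filter on low values and 0.01 without it.

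**Figure D3:**
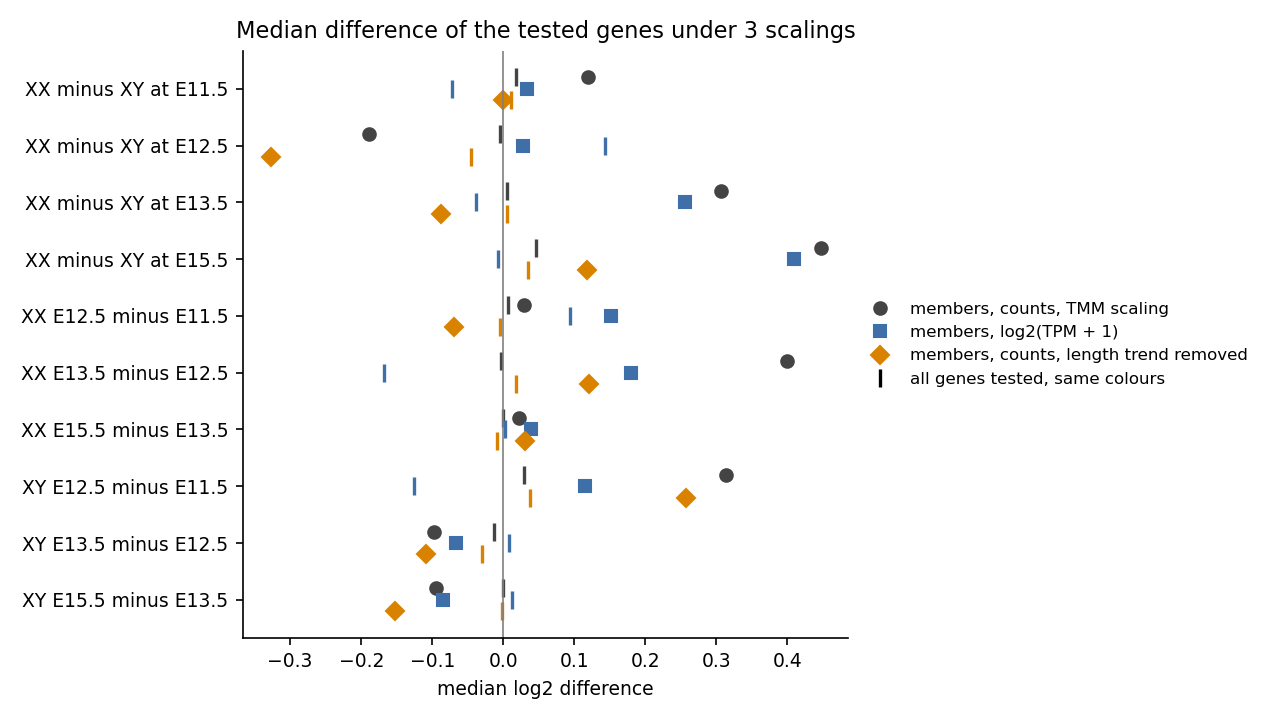
Median log2 difference (horizontal axis) of the tested genes in each of 10 comparisons, from counts with TMM scaling (circles), from log2(TPM + 1) (squares) and from counts with the length trend removed (diamonds), with ticks in the same colours for the median of all genes tested. At E13.5 the median is 0.31 from counts and -0.09 with the length trend removed, while at E15.5 all 3 are above 0.

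Complex I takes electrons from NADH. At E15.5, 28 of its 37 genes were higher in XX cells and 1, Ndufc2, was lower, against 34.9% and 34.4% of all genes. The median was 0.64. With the length trend removed, 23 were higher and 6 lower, with a median of 0.30. At E12.5, 1 was higher, Ndufs4, and 10 were lower, against 30.5% and 31.5% of all genes, with a median of -0.14. Removing the length trend left 1 higher and 24 lower there, and on the TPM scale the median was 0.06. Ndufv3, an accessory subunit gene of the NADH-binding module, had 360, 301 and 355 TPM in XX libraries at E15.5 and 156, 165 and 167 TPM in XY libraries. The groups lay apart by 2.45-fold (log2 1.29, SE 0.13, adjusted p = 1.43e-08 by edgeR). In XY cells Ndufv3 had 249, 272 and 268 TPM at E13.5 before falling to those values, a step of -0.75 (SE 0.13, adjusted p = 2.12e-04). In XX cells its level at E13.5 (350, 340 and 341 TPM) was close to that at E15.5 and the step was not called.

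Ndufc1 had 2050, 1587 and 1931 TPM in XX libraries at E15.5 and 1006, 1043 and 995 in XY libraries, a log2 difference of 0.96 (SE 0.15, adjusted p = 6.5e-06 by edgeR). At E12.5 the order was the other way, with 1173, 1059 and 987 TPM in XX and 1380, 1177 and 1259 in XY libraries, a log2 difference of -0.45 on the count scale (SE 0.15, adjusted p = 0.0117), and all XY values lay above the XX values. At E11.5 it was higher in XX cells (0.70, SE 0.15). Ndufb8, another accessory subunit gene, was higher in XX cells by 0.73 at E11.5 (SE 0.16, adjusted p = 9.86e-04 by edgeR) and by 1.04 and 1.03 at the last 2 stages. Ndufs1, the gene of the largest core subunit, which carries iron-sulfur clusters, went the other way at E11.5. It had 74.6, 54.6 and 74.9 TPM in XX and 123, 105 and 114 TPM in XY libraries, 1.54-fold lower in XX (log2 -0.62, SE 0.10, adjusted p = 3.13e-05 by edgeR). Its TPM ranges overlapped at E12.5, at 82.4 to 105 TPM in XX and 102 to 110 TPM in XY libraries, where it was still lower by -0.33 on the count scale.

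Ndufc2, for a membrane-arm subunit, was the only complex I gene lower in XX cells at all 4 stages. It had 288, 299 and 305 TPM in XX and 454, 481 and 516 TPM in XY libraries at E12.5, and was 1.88-fold lower in XX cells (log2 -0.91, SE 0.11, adjusted p = 4.26e-07 by edgeR). At E15.5 it was -0.29 (SE 0.11, adjusted p = 0.0269), with 317, 327 and 326 TPM against 415, 424 and 399. Ndufs4, needed for the assembly and stability of complex I, was the only one higher in XX cells at all 4 stages, from 0.36 at E11.5 to 0.99 at E15.5. Both X-linked complex I genes were higher in XX cells at E15.5. Ndufb11 differed by 0.99 (SE 0.12, adjusted p = 3.97e-07) and Ndufa1 by 0.83 (SE 0.13, adjusted p = 9.54e-06). Ndufa1 was lower in XX cells at E12.5 (-0.59, SE 0.13, adjusted p = 5.34e-04), when it had 231, 262 and 231 TPM in XX and 343, 300 and 307 TPM in XY libraries. It then rose in XX cells, by 0.63 between E13.5 and E15.5 (SE 0.13, adjusted p = 0.00156), to 432, 382 and 473 TPM.

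The Ndufaf genes encode factors that help build complex I and are not part of the finished enzyme. At E13.5, 7 of the 8 were higher in XX cells and none was lower, against 32.8% and 33.3% of all genes. At E15.5, 6 were higher and none lower, against 34.9% and 34.4%. With the length trend removed, 2 were higher and none lower at E13.5, and 4 were higher and 1 lower at E15.5. Ndufaf8 was higher in XX cells at all 4 stages, by 0.66, 0.53, 1.1 and 1.23 (SE 0.20 at each, adjusted p = 0.0105, 0.0232, 5.3e-05 and 1.17e-05 by edgeR). At E15.5 it had 203, 161 and 199 TPM in XX and 78.1, 81.1 and 83.0 TPM in XY libraries. Ndufaf6 was also called at all 4 stages, between 0.41 and 0.59. Ndufaf5 was lower in XX cells at E11.5 (-0.54, SE 0.12, adjusted p = 0.00113), with 11.4, 11.9 and 11.1 TPM against 16.7, 17.1 and 19.4. In XY cells it fell by 0.39 to E12.5. Ndufaf2 fell in XY cells between E12.5 and E13.5, from 80.2, 94.6 and 104 TPM to 52.6, 54.5 and 48.0 TPM (log2 -0.88, SE 0.13, adjusted p = 6.05e-05), the largest fall of a gene in that step by the naming rule.

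Complex II, which is also an enzyme of the citric acid cycle, has 4 genes, and they did not move as a set. Sdhb had 645, 540 and 606 TPM in XX and 305, 313 and 341 TPM in XY libraries at E15.5, 1.95-fold higher in XX (log2 0.96, SE 0.14, adjusted p = 2.98e-06 by edgeR). At E13.5 the difference was 0.79 (SE 0.14, adjusted p = 3.87e-05). Sdha, for the catalytic flavoprotein, was higher in XX cells by 0.28 at E15.5 (SE 0.08, adjusted p = 0.00466), with 381, 394 and 355 TPM against 305, 295 and 313. At E12.5 it was lower by -0.24 on the count scale (SE 0.08, adjusted p = 0.0127), and the sign turned on the TPM scale (0.02). Sdhc and Sdhd encode the membrane anchors. Sdhc was lower in XX cells at E11.5 alone of the 4 stages (-0.40, SE 0.14, adjusted p = 0.0312), with 111, 159 and 122 TPM against 196, 190 and 184, and it rose in XX cells by 0.75 to E12.5. Sdhd was lower in XX cells at E12.5 alone (-0.32, SE 0.09, adjusted p = 0.0044), with 309, 317 and 314 TPM against 333, 336 and 355.

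Complex III passes electrons from ubiquinol to cytochrome c. Cyc1, for its cytochrome c1 subunit, does not begin with the letters of the rule and is given below with Cycs, for cytochrome c. At E11.5 all 8 genes were called, 4 higher and 4 lower in XX cells, against 42% of all genes called in either direction. The same counts were found with the length trend removed. Both counts include XX E11.5 replicate 2. At E15.5, 5 were higher and 1 lower (median 0.41), against 34.9% and 34.4% of all genes. With the length trend removed 3 were higher and 1 lower (median 0.05). Uqcr10, a small accessory subunit gene, was higher in XX cells at each stage, by 0.50, 0.38, 0.90 and 0.86 (SE 0.14 at each, adjusted p = 0.0076, 0.0263, 1.18e-05 and 1.76e-05 by edgeR), with 1248, 1075 and 1279 TPM against 675, 688 and 717 at E15.5. Uqcrc1, for a core subunit, was higher by 1.06 at E15.5 (SE 0.14, adjusted p = 7.21e-07), with 970, 856 and 930 TPM against 395, 430 and 459. The other core subunit gene, Uqcrc2, was at 164, 174 and 170 TPM in XX and 160, 155 and 148 TPM in XY libraries at that stage and was not called. It was lower in XX cells at E11.5 (-0.27) and E12.5 (-0.43). Uqcrfs1, for the Rieske iron-sulfur protein, was the gene lower in XX cells at E15.5 (-0.27, SE 0.08, adjusted p = 0.00433), with 169, 182 and 157 TPM against 208, 220 and 210.

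Complex IV, cytochrome c oxidase, reduces oxygen. Of its 17 tested genes, 9 were higher and 4 lower in XX cells at E15.5, against 34.9% and 34.4% of all genes. With the length trend removed 7 were higher and 6 lower. Cox6c and Cox6a1, accessory subunit genes of like transcript length, moved apart. Cox6c had 923, 1165 and 918 TPM in XX and 1139, 1100 and 916 TPM in XY libraries at E11.5, where the groups overlapped. By E15.5 it had 1550, 1297 and 1526 TPM in XX and 594, 613 and 568 TPM in XY libraries, 2.61-fold higher in XX (log2 1.39, SE 0.12, adjusted p = 2.82e-09 by edgeR). In XY cells it fell by 0.41 between E11.5 and E12.5 (SE 0.12, adjusted p = 0.0081), and in XX cells it rose by 0.53 between E12.5 and E13.5 (SE 0.12, adjusted p = 0.00227).

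Cox6a1 was lower in XX cells at each stage, by -0.46, -0.85, -0.77 and -0.78 (SE 0.10 at each, adjusted p = 8.61e-04, 2.25e-07, 7.82e-07 and 4.85e-07 by edgeR). It had 563, 664 and 629 TPM in XX and 903, 971 and 1028 TPM in XY libraries at E12.5, after it had risen in both from E11.5, by 0.67 in XX and by 1.06 in XY cells. At E15.5 it had 450, 469 and 452 TPM in XX and 796, 819 and 845 TPM in XY libraries. Within a library, where scaling between libraries has no part, the ratio of Cox6a1 to Cox6c in TPM was 0.316 ± 0.0394 in XX and 1.39 ± 0.0854 in XY cells at E15.5 (SD, n = 3), and 0.363 ± 0.0233 and 0.503 ± 0.0402 at E11.5.

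The isoforms of complex IV known from other tissues differed in level and course. Cox6b2, described as a testis form of Cox6b1, had 79.4, 97.8 and 117 TPM in XX and 11.8, 18.5 and 16.4 TPM in XY libraries at E12.5, 5.51-fold higher in XX (log2 2.46, SE 0.25, adjusted p = 3.17e-08 by edgeR). At E13.5 it was 2.87-fold higher (log2 1.52), and at E15.5, with 51.7, 52.6 and 47.5 TPM against 41.9, 46.0 and 44.0, it was not called. In XX cells it rose by 1.39 to E12.5, and in XY cells it rose by 0.80 between E13.5 and E15.5. Cox6b1 itself, at 249 to 558 TPM over all libraries, stayed the more abundant form in each library. Cox7a1, the heart and muscle form of Cox7a, rose in both: XX libraries held 13.8, 25.9 and 10.3 TPM at E11.5 and 123, 103 and 120 at E15.5. XY libraries held 12.9, 17.8 and 10 TPM at first, 70.1, 79.3 and 69.3 at E13.5 and 59.4, 65.4 and 62.5 at the last stage. It was lower in XX cells at E12.5 (-0.86, SE 0.25, adjusted p = 0.00491) and at E13.5 (-0.57, SE 0.24, adjusted p = 0.0396), and higher at E15.5 (0.96, SE 0.24, adjusted p = 0.0011). The ratio of Cox7a1 to Cox7a2, the form of most tissues, went from 0.0561 ± 0.02 to 0.386 ± 0.0248 in XX cells and from 0.0452 ± 0.0156 to 0.163 ± 0.0116 in XY cells between E11.5 and E15.5.

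Ndufa4, now known as a complex IV subunit, was higher in XX cells at all stages but E12.5, by 0.55, 0.64 and 0.89 (SE 0.18 at each, adjusted p = 0.0184, 0.00422 and 2.08e-04 by edgeR), with 1511, 1390 and 1516 TPM against 804, 832 and 786 at E15.5. Its paralogue Ndufa4l2, a gene known to respond to hypoxia, was far less abundant. It had 12.8, 65.9 and 36.3 TPM in XX and 1.59, 2.26 and 3.77 TPM in XY libraries at E11.5, where it was 15.1-fold higher in XX (log2 3.92, SE 0.50, adjusted p = 2.47e-06). At E13.5 it had 14.0, 9.16 and 13.2 TPM in XX libraries and 0.07 to 0.27 TPM in XY libraries. Each XX library lay above each XY library at all 4 stages, and from E12.5 on the XY levels were under 1 TPM. XX libraries also held the other cell types given above, and their part in Ndufa4l2 was not tested. Cox4i2, the oxygen-sensitive form of Cox4i1, was between 0 and 8.75 TPM in all libraries, and was higher in XX cells in the first 3 stages, most at E12.5 with 6.92, 7.17 and 5.05 TPM against 0.31, 0 and 0.3. Cox6a2, the heart and muscle form of Cox6a1, was lower in XX cells at both late stages (-1.95 and -1.37, SE 0.61 and 0.53), with 1.69 ± 0.422 TPM against 4.57 ± 0.0764 at E15.5 (SD, n = 3), and was at 0.66 TPM or less in XX libraries before.

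The other complex IV genes with tissue isoforms differed in direction. Cox4i1, the main form of its subunit, had 799, 783 and 714 TPM in XX and 761, 766 and 777 TPM in XY libraries at E15.5, where the groups overlapped. Cox7a2l, which takes part in joining complexes III and IV, was higher in XX cells from E12.5 on, by 0.51, 0.70 and 1.08, with 448, 410 and 444 TPM against 206, 217 and 211 at E15.5 (SE 0.15, adjusted p = 1.71e-06 by edgeR). Cox7a2 was lower by -0.67 at E12.5, with 277, 314 and 279 TPM against 364, 395 and 443, and by -0.34 at E15.5. Cox8a, the form of most tissues, was lower at the same stages, by -0.31 and -0.36. X-linked Cox7b was higher at both late stages, by 0.67 and 0.53, with 315, 297 and 355 TPM against 205, 219 and 222 at E15.5. Cox6b1 was higher at those stages by 0.28 and 0.38 on the count scale, and with the length trend removed its values were -0.19 and -0.01.

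**Figure D4:**
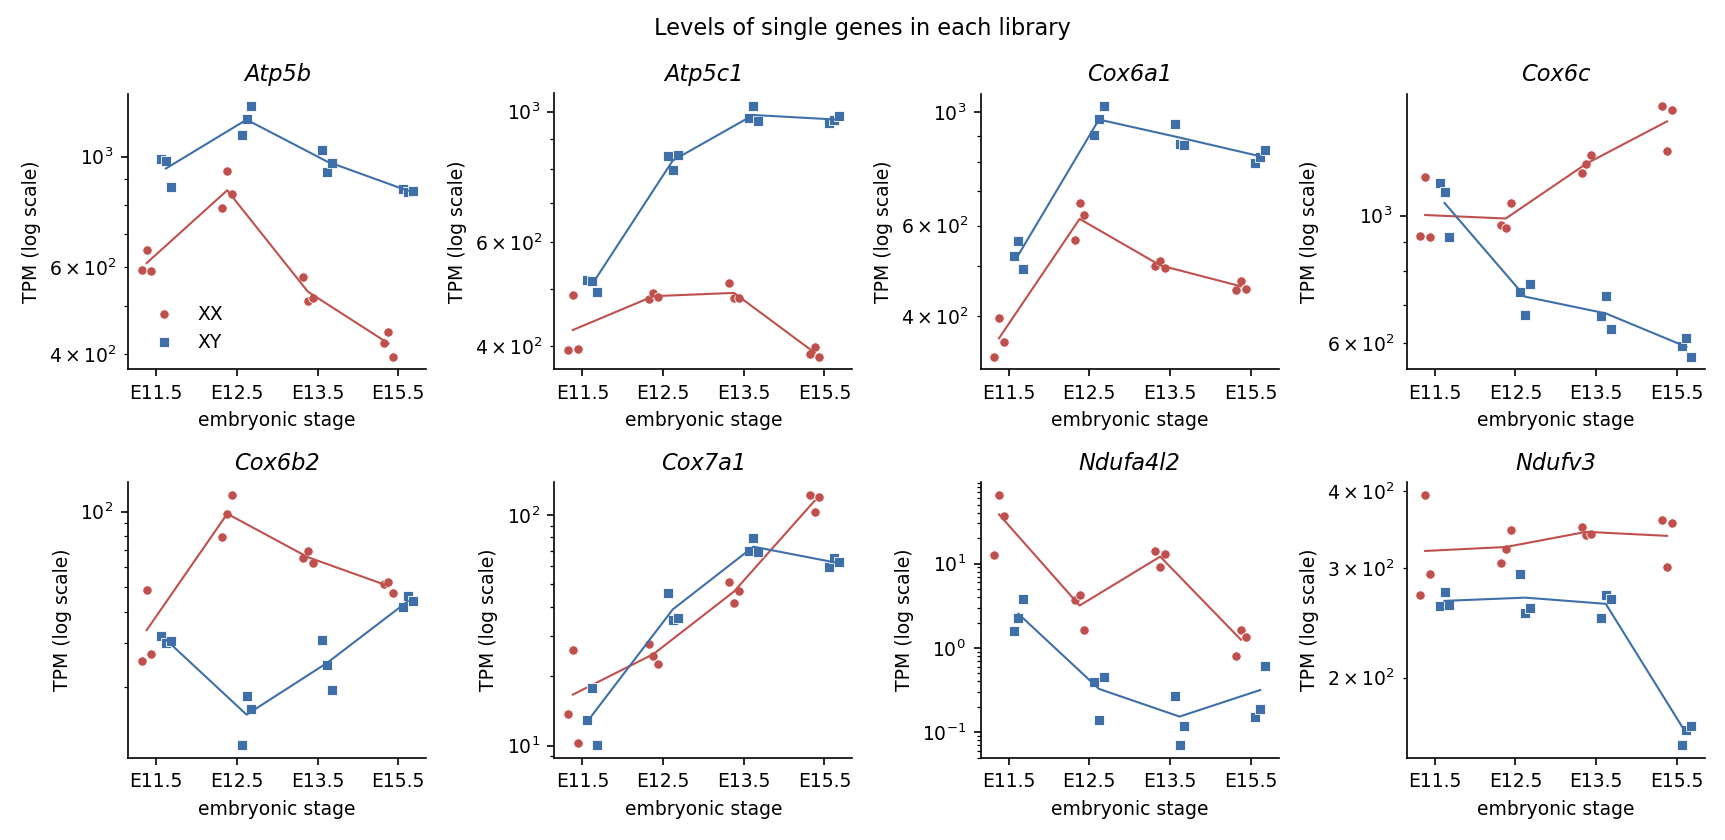
TPM on a log axis (vertical) at each stage for 8 genes, with 1 point per library, XX as circles and XY as squares, and lines through group means. Atp5b, Atp5c1 and Cox6a1 lie lower in XX cells from E12.5 on, Cox6c and Ndufv3 lie higher in XX cells at E15.5, and Cox6b2 comes close at E15.5 after lying apart at E12.5.

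ATP synthase is a rotary enzyme, with a catalytic F1 head outside the membrane, a peripheral stalk that holds the head still, and a part in the membrane that carries the proton flow. Split this way, a division chosen after the values were seen, its genes differed in direction at E15.5. All 5 genes of the F1 head (Atp5a1, Atp5b, Atp5c1, Atp5d and Atp5e) had negative differences between XX and XY cells, with 4 called and a median of -0.59. All 4 peripheral stalk genes (Atp5pb, Atp5h, Atp5j and Atp5o) were higher in XX cells, with a median of 0.58. Of the 8 genes of the membrane part, 4 were higher and none was lower, with a median of 0.29. Of all genes, 34.9% were higher and 34.4% lower in XX cells at that stage. With the length trend removed the 5 head genes were all lower in XX cells (median -0.92), 3 stalk genes were higher and none lower (median 0.20), and 3 membrane genes were lower and none higher.

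Atp5c1, for the rotating gamma subunit, had 388, 398 and 384 TPM in XX and 958, 967 and 984 TPM in XY libraries at E15.5. It was 2.38-fold lower in XX cells (log2 -1.25, SE 0.10, adjusted p = 2.54e-10 by edgeR). At E12.5 and E13.5 it was lower by -0.96 and -0.94, and at E11.5 (394, 488 and 396 TPM against 519, 516 and 494) it was not called. In XY cells it rose by 0.90 between E11.5 and E12.5 (SE 0.10, adjusted p = 9.35e-08). In XX cells it fell by 0.34 between E13.5 and E15.5.

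Atp5b, for the catalytic beta subunit, was lower in XX cells at each stage, by -0.57, -0.69, -0.87 and -1.01 (SE 0.10 at each, adjusted p = 5.97e-05, 2.41e-06, 7.35e-08 and 6.55e-09 by edgeR). At E11.5, XX libraries held 592, 650 and 589 TPM and XY libraries 989, 981 and 870. The levels were 788, 936 and 842 TPM against 1106, 1190 and 1264 at E12.5. At E15.5 they were 422, 444 and 396 TPM against 860, 850 and 852. The groups did not overlap at these 3 stages. It fell in XX cells in both steps after E12.5, by 0.45 and 0.38, as did Atp5d, for the delta subunit of the head, by 0.43 and 0.44. Atp5a1, for the alpha subunit, was lower in XX cells at all 4 stages, between -0.19 and -0.36.

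The stalk gene Atp5pb went the other way. It had 406, 444 and 450 TPM in XX and 277, 270 and 286 TPM in XY libraries at E15.5, a log2 difference of 0.68 (SE 0.09, adjusted p = 6.56e-07 by edgeR), after -0.26 at E12.5 (SE 0.09, adjusted p = 0.0147). Atp5o differed by 0.49, 0.55 and 0.61 at all stages but E12.5, with 1299, 1114 and 1264 TPM against 821, 821 and 878 at E15.5. Atp5h differed by 0.56 and Atp5j, for subunit F6, by 0.36 at E15.5, and with the length trend removed Atp5j was at -0.03. The ratio of summed F1 head to summed peripheral stalk TPM within a library was 0.466, 0.52 and 0.449 in XX and 1.21, 1.23 and 1.18 in XY cells at E15.5. At E11.5 the ratio was 0.581, 0.557 and 0.571 in XX and 0.956, 0.871 and 0.88 in XY cells, and XX E11.5 replicate 2, at 0.557, did not stand apart in it. At E12.5 it was nearer, at 0.862, 0.989 and 0.966 in XX and 0.985, 1.12 and 1.16 in XY cells, where the groups overlapped.

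**Figure D5:**
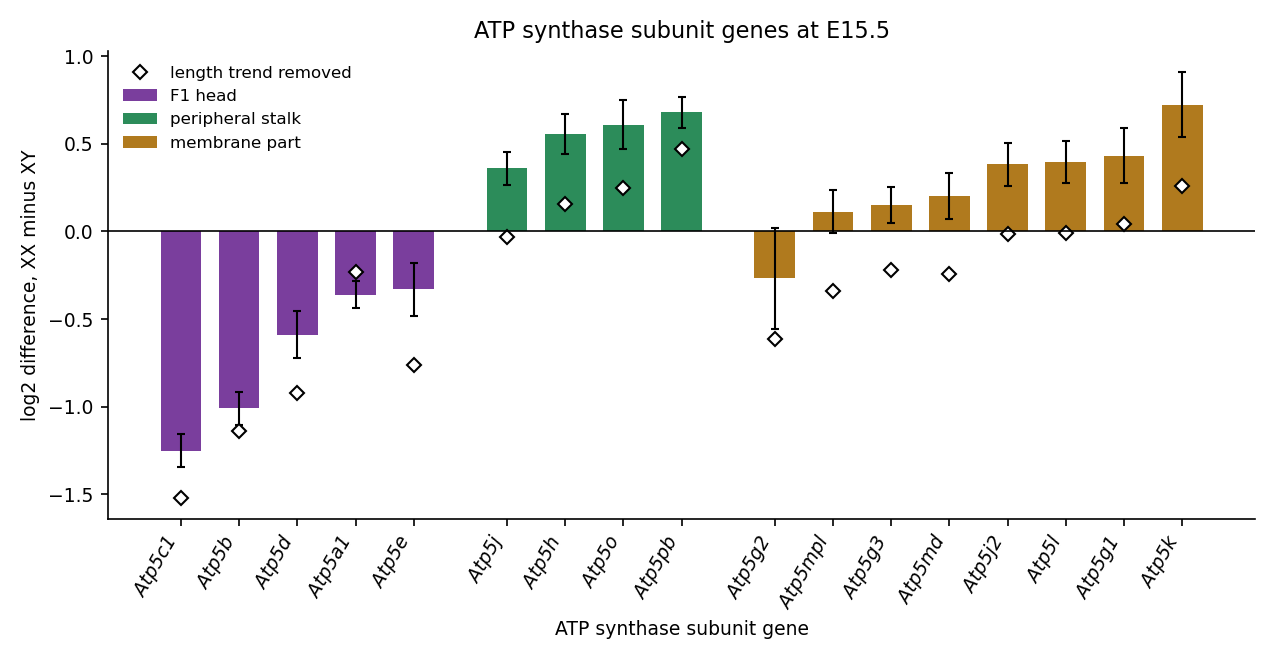
Log2 difference between XX and XY cells at E15.5 (vertical axis) for each ATP synthase gene, with bars for the edgeR estimate, error bars for its SE, and diamonds for the value with the length trend removed. The 5 F1 head genes lie below 0 in both, and the 4 peripheral stalk genes lie above 0 as bars, with Atp5j at -0.03 once the length trend is removed.

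The 3 genes of the c ring of the membrane part encode the same mature protein. Atp5g1 and Atp5g3 were abundant (373 to 721 and 409 to 679 TPM over all libraries) and Atp5g2 was not (6.81 to 29.3 TPM). Atp5g2 rose by 1.29 in XY cells between E11.5 and E12.5 (SE 0.29, adjusted p = 7.18e-04 by edgeR) and was lower in XX cells at E13.5 (-0.97, SE 0.29, adjusted p = 0.00627), with 12.8 ± 2.21 TPM against 25.7 ± 3.08 (SD, n = 3) and no overlap. Atp5g3 fell by 0.43 in XY cells between E12.5 and E13.5 (SE 0.10, adjusted p = 0.00623).

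Each stage was then compared with the one before. These steps use the same libraries as the differences between XX and XY cells, so the values are given side by side and not as separate support. In XX cells, 15 of the 92 genes rose and 10 fell between E11.5 and E12.5, against 34% of all genes called in either direction, and without XX E11.5 replicate 2 the counts were 51 and 3, and without XX E12.5 replicate 3 a total of 14 were called. That balance also turned with the scale. With the length trend removed 14 rose and 30 fell, and on the TPM scale 31 rose and 9 fell. Fitted on only the 6 libraries compared, 3 were called in that step, 2 that rose and 1 that fell. Between E12.5 and E13.5, 58 rose and 2 fell (Atp5b and Atp5d), against 14.2% of all genes that rose and 17.4% that fell (31.7% in either), with a median of 0.40. With the length trend removed 29 rose and 8 fell (median 0.12), and on the TPM scale 30 rose and 7 fell, with a median of 0.18 where that of all genes was -0.17. Between E13.5 and E15.5, 2 rose and 7 fell, against 25.6% of all genes called in either direction, and the 7 included 4 of the 5 F1 head genes. Once the length trend was removed, 15 rose and 10 fell in that step, and on the TPM scale 8 rose and 9 fell. Both that rose, Cox7a1 and Ndufa1, are named above.

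In XX cells the rise between E12.5 and E13.5 took in 27 of 37 complex I genes, 4 of 8 assembly factors, 2 of 4 complex II genes, 4 of 8 complex III genes, 10 of 17 complex IV genes and 10 of 17 ATP synthase genes. After removal of the length trend, 15 complex I genes rose and none fell, while 3 rose and 4 fell in complex IV, and 4 rose and 4 fell in ATP synthase. Cox7a1 rose most under the naming rule (1.15, SE 0.25, adjusted p = 0.00132 by edgeR), followed by Ndufc1 (0.89) and Ndufa12 (0.81), an accessory subunit gene of complex I. In XY cells, 50 genes rose and 5 fell between E11.5 and E12.5, against 27.1% and 24.8% of all genes (51.9% in either), with a median of 0.31, and 57 rose and 6 fell with the length trend removed. On the TPM scale 25 rose and 9 fell (median 0.11), and with a minimum of 10 counts in every library 26 rose and 4 fell. Without XY E11.5 replicate 3, 24 in all were called. The falls in interstitial and steroidogenic cell markers in this step are given above, and their part was not tested. Under the naming rule the largest rises were those of Atp5g2 (1.29), Cox6a1 (1.06) and Ndufb4 (0.95, SE 0.13, adjusted p = 3.49e-06), an accessory subunit gene of complex I. In the later steps in XY cells, 3 rose and 7 fell between E12.5 and E13.5, against 8.02% and 8.62% of all genes (16.6% in either), and 1 rose and 4 fell between E13.5 and E15.5, against 9.79% of all genes that fell and 21.3% called in either direction. These totals of 10 and 5 were 5 without XY E13.5 replicate 2 and 2 without XY E15.5 replicate 2. Without the length trend 6 rose and 18 fell in the first of these steps, and 1 rose and 29 fell in the last. Fitted on only the 6 libraries compared, 21 and 27 were called. The calls that fell in the last step were all in complex I and included Ndufv3, Ndufs1 (-0.35) and Ndufa9 (-0.30).

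Over all 4 stages, 83 genes changed with stage in XX cells and 62 in XY cells, against 74% and 70.3% of all genes, and the 62 became 35 without XY E11.5 replicate 3. The difference between XX and XY cells changed with stage for 70 of the 92, against 70.1% of all genes, and for 85 without XX E11.5 replicate 2. Of the 92, 5 were higher in XX cells at all 4 stages (Ndufs4, Ndufaf6, Ndufaf8, Uqcr10 and Ndufa4l2), and 4 were lower (Ndufc2, Cox6a1, Atp5a1 and Atp5b). The same patterns were found in 8.49% and 9.39% of all genes. Patterns over all 4 stages include XX E11.5 replicate 2 and were not recounted without it. Higher in XX cells at both E13.5 and E15.5 were 43, a pattern of 24.9% of all genes. Higher in XY cells at E12.5 and in XX cells at E15.5 were 13, a pattern of 2.74% of all genes. All patterns over stages are of calls on the count scale. They were not recounted on the TPM scale or with the length trend removed. The leans at E12.5 and E13.5 depended on that choice, as given above. No difference was called at any stage for 4, which were Cox4i1, Ndufv1 and Ndufa10 in complex I, and Atp5e, a pattern of 8.58% of all genes.

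Genes that act beside the respiratory chain were read from lists. Of all genes, 34.9% were called higher and 34.4% lower in XX cells at E15.5, and 30.5% and 31.5% at E12.5. The list calls are on the count scale and were not recounted with the length trend removed. Of 34 assembly factors outside the rule, 18 were higher and 7 lower in XX cells at E15.5 (median 0.47), and of 79 mitochondrial ribosomal protein genes, which make the mitochondrially encoded subunits, 40 were higher and 16 lower (median 0.24). At E12.5 these lists had 4 higher and 9 lower, and 1 higher and 28 lower. Of 13 citric acid cycle genes, 3 were higher and 6 lower at E15.5 (median -0.24). Of 14 genes of the outer membrane, import and carriers, 3 were higher and 7 lower (median -0.22). At E12.5 the citric acid cycle genes had 0 higher and 7 lower, and the outer membrane, import and carrier genes 1 higher and 11 lower. Cycs, the somatic cytochrome c that carries electrons from complex III to complex IV, was lower in XX cells at each stage, by -0.76, -2.06, -0.72 and -1.05. Cyc1, for cytochrome c1 of complex III, was higher in XX cells at E11.5, lower at E12.5 and not called at E13.5 and E15.5. Of 15 regulators of respiratory genes, 4 were higher and 7 lower at E15.5. Nrf1, the factor whose word was searched for, was lower in XX cells by -1.15 at E15.5, Yy1 was higher by 0.96, and Ppargc1a, a coactivator of mitochondrial genes, was lower by -5.09, -4.69 and -3.15 at the first 3 stages and was not called at the last (-0.39). These values are levels of the RNA of these factors and say nothing of their binding.

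The genes that could not be tested were Cox7b2, Cox8b, Cox8c, Ndufb11b and Ndufs6b, each at 1.94 TPM or less in all libraries. Ndufb4c was abundant, at 379 to 852 TPM, and its sequence was not compared with that of Ndufb4 here. It was taken as a likely copy, as GENCODE lists it as a processed pseudogene, though RefSeq lists it as protein coding. How reads were divided between the pair is not given in the sources used here, so its values are uncertain. It was lower in XX cells at E12.5 (-0.49) and higher at E15.5 (0.39), and with the length trend removed the E15.5 value was -0.05. Other genes with short transcripts and processed copies elsewhere in the genome share this limit.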

How the data were processed

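The authors deposited a table of estimated counts per gene, of which 17.5% of values were not whole, and a table of TPM. The build was mm10 per the submitters' processing notes, and the aligner and counter are not given in the sources used here. Estimated counts were rounded, filtered with filterByExpr, scaled by TMM and fitted over all 24 libraries with edgeR 4.0.16 (robust quasi-likelihood, 8 group means, 16 residual degrees of freedom) in R 4.3.3. P-values were adjusted over all 16190 genes tested. The fit was tested on simulated data with the same spread in all genes and groups. That test does not cover a group that varies more than the others. TPM was used for levels between genes, and log2(TPM + 1) was tested with limma 3.58.1. DESeq2 1.42.0, other filters, each library left out in turn, a fold threshold and removal of a length trend (loess, span 0.3) were alternatives. Values were given for genes with tissue isoforms, complex II, the most abundant gene of each complex, the 5 smallest interaction p-values, and, per comparison, the 3 largest changes each way among called genes whose groups did not overlap and whose higher group reached 10 CPM. Other genes of a complex were named beside them. The genes, lists and the split of ATP synthase were chosen with earlier results of these data known. Promoters came from RefSeq for GRCm38.p6.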

Additional observations from a re-analysis of the deposited data

Results flagged for a closer look

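The difference between XX and XY cells changed with stage for 70 of the 92 tested genes by edgeR's quasi-likelihood F test of the interaction and for 70.1% of all genes. Without XX E11.5 replicate 2 the 70 became 85. The 5 smallest adjusted p-values were those of Cox6c (1.75e-06), Atp5c1 (3.68e-06), Ndufa1 (7.85e-06), Atp5pb (8.94e-06) and Cox6b2 (1.78e-05). Cox6c, Atp5pb and Ndufa1 ended higher in XX cells at E15.5, Atp5c1 ended lower, and Cox6b2 was higher in XX cells at E12.5 and E13.5 and not called at E15.5.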

How the results depend on the processing

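Libraries with the same replicate number showed little correlation of deviations, which does not exclude a pairing. The correlation was above 0.1 in 6 of 84 such pairs, and the highest was 0.298. Its mean was 0.00907 for the same number and -0.00457 for other numbers. Of the 24 libraries, 12 correlated best with their own number. With a replicate block, 39, 42, 58 and 68 genes were called between XX and XY cells at E11.5 to E15.5, 24, 55 and 9 in the XX steps, 53, 10 and 4 in the XY steps, and 82, 61 and 71 for stage in XX, stage in XY and the interaction.

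Called genes in the differences between XX and XY cells at the 4 stages numbered 42, 43, 58 and 69. With an absolute log2 change of at least 1 they were 2, 3, 6 and 13, with only the 6 libraries compared 3 at E11.5, and with the length trend removed 69 at E12.5. In the 3 XX steps (25, 60 and 9) log2(TPM + 1) gave 40, 37 and 17, log2(TPM + 0.1) gave 39, 37 and 15, no TPM filter gave 31 and 14 in the second and last, the fold threshold 3, 2 and 3, the length trend removed 44, 37 and 25, and only 6 libraries 3 in the first and 14 in the last. In the 3 XY steps (55, 10 and 5) a minimum of 10 counts in every library gave 30 in the first, the TPM settings 34, 34 and 33 in the first, DESeq2 8 in the last, the fold threshold 5, 2 and 0, the length trend removed 24 and 30 in the second and last, and only 6 libraries 21 and 27. The fold threshold left 6, 7 and 9 for stage in XX, stage in XY and the interaction. The lower counts under a fold threshold follow from it. The cause of the other shifts was not tested.

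Leaving out 1 library gave 29 to 49, 30 to 34, 48 to 58 and 61 to 68 calls between XX and XY cells, 14 to 54, 43 to 51 and 7 to 12 in the XX steps, 24 to 38, 5 to 7 and 2 to 5 in the XY steps, and 76 to 89, 35 to 51 and 62 to 85 for stage in XX, stage in XY and the interaction. The lone pair left in a group was assumed to vary like the other groups.

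Medians changed sign as follows. At E11.5 the median was -0.000951 with the length trend removed and -0.1205 without XX E11.5 replicate 2, in a range up to 0.2358. At E12.5 it was 0.02714, 0.02721 and 0.02714 on the TPM settings, and at E13.5 -0.08829 with the length trend removed. For XX E12.5 minus E11.5 it was -0.009777 with DESeq2 size factors, -0.01079 with DESeq2 and -0.06986 with the length trend removed, and -0.06419 to 0.2502 with 1 library left out. For XX E15.5 minus E13.5 it was -0.009787 and -0.009917 under the DESeq2 settings, and -0.0197 to 0.09838 with 1 library left out. Log2 ratios of summed CPM, which are not scaled by length, turned sign against TPM at E12.5 for complexes I (-0.1393), II (-0.1982), III (-0.09211) and IV (-0.1289), at E15.5 for ATP synthase (-0.08033), and at E11.5 for complex II (0.05407) and the copies (0.04402). With the length trend removed Atp5j at E15.5 was -0.03178, Cox6b1 -0.1904 at E13.5 and -0.01142 at E15.5, and Ndufb4c -0.05177 at E15.5. Sdha at E12.5 was 0.01619, 0.01623 and 0.01619 on the TPM settings. Of 1666 values of single genes under alternatives, 1451 kept direction and call, 208 lost the call and 7 turned. These genes were the ones named or printed above, many of them chosen for large called changes with no overlap. The counts therefore do not stand for all called genes.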
